A study of Homo sapiens with 12 samples.

Results

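Genes that set 1% oxygen apart from 21% oxygen were examined on 6 arrays that resemble each other across most genes, the 3 arrays labelled SUDHL2 hypoxia and the 3 labelled HLY normoxia. They belong to a set of 12 Illumina HumanHT-12 v4 BeadChips, on which RNA of the diffuse large B-cell lymphoma (DLBCL) lines SUDHL2 and HLY was measured. The SUDHL2 hypoxia cells were grown at 1% oxygen and the HLY normoxia cells at 21% oxygen, in both cases in RPMI-1640 with fetal bovine serum, and the other 6 arrays are labelled HLY hypoxia (1% oxygen) and SUDHL2 normoxia (21% oxygen). Each group held 3 arrays, described by the submitters as biological replicates, each line is 1 established cell line, and the time in hypoxia for the arrays is not given in the sources used here. The 6 arrays were chosen by the likeness of their log2 intensities over all detected probes, so every difference between them is given as a description. They are called the like arrays below. The tests are those of HLY hypoxia against SUDHL2 normoxia, the 6 arrays that this choice left over. These 6 were about as alike (median correlation 0.988), so the choice of the first 6 bears on them too. The gene lists were written with earlier results of these data known, so counts of list members in these tests are not independent of the data. All 12 arrays share 1 normalization and 1 estimate of the spread, however, so the p-values of these tests also depend on the chosen arrays.

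Cells sense oxygen through prolyl hydroxylases that mark the HIF alpha subunits for destruction by the VHL ubiquitin ligase. When oxygen is scarce the alpha subunits persist, pair with ARNT and bind the short DNA core RCGTG (R is A or G) near genes for glucose uptake, glycolysis, vessel growth and restraint of mTOR. Activated B-cell-like lymphoma cells grow in lymphoid tissue that is poor in oxygen, and the study asked how such cells adapt.

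The array labels and the array values did not group in the same way, which bears on every result. Across the 16288 probes detected on at least 3 of the 12 arrays, the log2 intensities of SUDHL2 hypoxia and HLY normoxia arrays correlated at 0.977 to 0.984 (Pearson's r over probes, 9 pairs of arrays, a description of arrays that share a probe set). The 3 SUDHL2 hypoxia arrays correlated with each other at 0.978 to 0.995 and the 3 HLY normoxia arrays at 0.995 to 0.996. In contrast, the median correlation of SUDHL2 hypoxia arrays was 0.844 with the arrays of SUDHL2 normoxia and 0.84 with those of HLY hypoxia, whereas HLY hypoxia and SUDHL2 normoxia arrays correlated at a median of 0.988. The line label and the oxygen label change together between the 2 groups compared, so their parts in a difference cannot be told apart on these 6 arrays. In HLY hypoxia against SUDHL2 normoxia the line labels stand the other way round while the oxygen labels do not. CD79B, a subunit of the B-cell receptor, had mean levels of 10.95 in SUDHL2 hypoxia and 10.98 in HLY normoxia, against 4.95 in HLY hypoxia and 5.02 in SUDHL2 normoxia, where it was not above background. CD38, a plasma cell marker, was not above background in SUDHL2 hypoxia or HLY normoxia and had 11.07 in both of the other groups. Neither marker stands for its list, as other members went the opposite way. JCHAIN, a plasma cell marker, had 10.59 in SUDHL2 hypoxia and 11.04 in HLY normoxia, against 8.45 in HLY hypoxia and 8.42 in SUDHL2 normoxia. IRF4, on the B-cell list, had 10.67 and 10.46 in the first 2 of these groups, against 12.1 and 12.03. If line labels had been exchanged at one of the oxygen levels, each comparison would lie within 1 line, which was not tested. All groups are called by their labels.

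Of 19 B-cell markers on the array, 17 were detected on all 3 arrays in both groups, and 2, PAX5 and CR2, on none of the 6 arrays. The summed level of all 19 was 175.0 in SUDHL2 hypoxia and 175.3 in HLY normoxia (log2 units). Of 12 T-cell and NK-cell markers, 11 were detected on none of the 6 arrays, as were all 6 erythroid markers. The SUDHL2 hypoxia arrays had median intensities of 139, 116 and 111 with 14661, 13620 and 12322 probes detected at p under 0.01, against 120, 123 and 113 with 14181, 13599 and 13726 probes for HLY normoxia. SUDHL2 hypoxia replicate 1 was thus the brightest and replicate 3 had the fewest detected probes, while the HLY normoxia arrays lay between them.

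Values were normalized across the 12 arrays and are given as log2 intensities, where a difference of 1 is a doubling. A gene is called higher or lower where limma, fitted to all 4 groups, gave an adjusted p under 0.05. Between SUDHL2 hypoxia and HLY normoxia, 553 of the 9621 genes tested were called higher (5.75% of genes) and 973 lower (10.1%), 1526 in all (15.9%). The 3 arrays of SUDHL2 hypoxia lay above all 3 of HLY normoxia for 18.8% of genes and below them for 16.4%. Among called genes the arrays did not overlap for 548 of the 553 higher and 953 of the 973 lower. A lack of overlap therefore adds little to a call. Only 10 of the higher genes differed by at least 1, against 176 of the lower genes, and the median over all genes was 0.05. In order of size these 10 were DDIT4, RNA28SN5, PFKFB4, ANKRD37, PHF1, TXN2, FDXACB1, PITPNC1, SNORD14B and EIF1AD. RNA28SN5, a 28S ribosomal RNA gene, differed by 1.26, and its other probe by 0.34. Of the 10, only DDIT4, PFKFB4 and ANKRD37 are on the HIF target list, and only they were also called higher in HLY hypoxia against SUDHL2 normoxia. When arrays were centred on the median of the detected probes instead, 745 genes were called higher and 801 lower, so that higher genes made up 48.2% of the calls in place of 36.2%. In HLY hypoxia against SUDHL2 normoxia, 113 genes rose (1.17%) and 118 fell (1.23%), 231 in all (2.4%), and the differences of the 2 comparisons were unequal for 552 genes (5.74%). Those that rose and fell numbered 60 and 50 without HLY hypoxia replicate 3, 68 and 66 without HLY hypoxia replicate 2, 77 and 74 without SUDHL2 normoxia replicate 1 and 81 and 63 without SUDHL2 normoxia replicate 3, while leaving out HLY hypoxia replicate 1 gave 76 genes that rose and 79 that fell. They numbered 154 and 141 without SUDHL2 hypoxia replicate 1, an array outside this comparison, and 80 and 62 with each comparison normalized and fitted alone. Of the 553 genes called higher, 22 also rose in HLY hypoxia against SUDHL2 normoxia (3.98%, or 19.5% of the genes that rose there), and 5 fell. Of the 973 called lower, 57 also fell (5.86%, or 48.3% of the genes that fell there), and 3 rose. Leaving out 1 array gave 210 to 812 higher genes, at 277, 210 and 235 without HLY normoxia replicates 1, 2 and 3 and at 257 and 279 without SUDHL2 hypoxia replicates 2 and 3. Lower genes numbered 623 to 1321, with the fewest without HLY normoxia replicate 2 (623), SUDHL2 hypoxia replicate 3 (627) and SUDHL2 hypoxia replicate 2 (648). The 22 genes became 14 without HLY normoxia replicate 1 or 3 or SUDHL2 hypoxia replicate 3, and the 57 became 29 without HLY hypoxia replicate 3 and 33 without SUDHL2 normoxia replicate 3. Centring arrays on the median of all probes, with no further scaling, left 1 higher and 9 lower genes between the like arrays, and 29 higher and 0 lower genes on the others (limma). Most called genes thus had no call of the same direction on the arrays not chosen, and 61.5% of the higher and 51.5% of the lower genes had the same sign there, beside 49.4% and 50.6% of all genes with that sign.

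**Figure D1:**
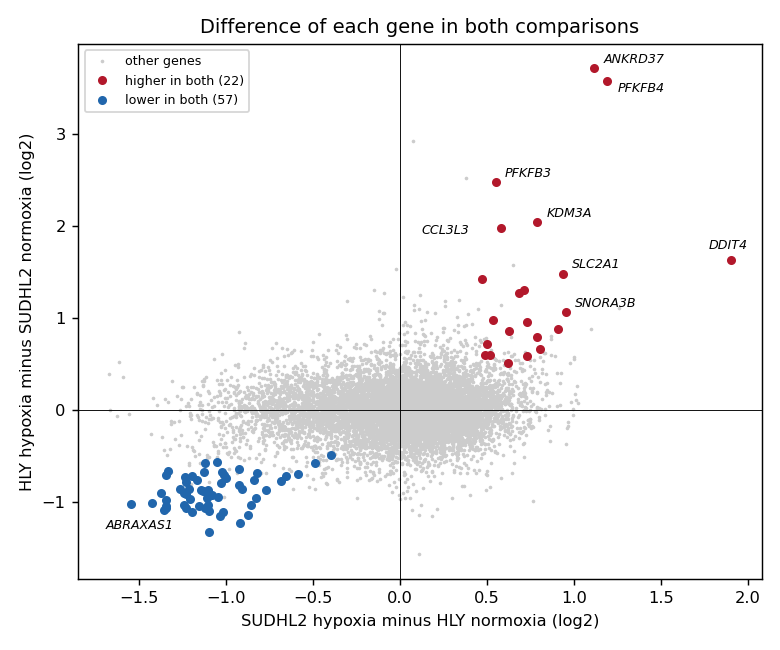
Each point is 1 of 9621 genes, with its log2 difference between SUDHL2 hypoxia and HLY normoxia on the x axis and between HLY hypoxia and SUDHL2 normoxia on the y axis. The 22 genes called higher in both (red) and the 57 called lower in both (blue) lie at the corners of a cloud around 0, with DDIT4 farthest right and ANKRD37 and PFKFB4 highest.

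Genes activated by HIF led the 22 genes that were higher with 1% oxygen in both comparisons, and DDIT4, ANKRD37 and PFKFB4 had the largest differences. The promoters of these 3, and of the factor gene BHLHE40, are shown because they carry the core to which HIF binds. Each line gives 250 bases before and 50 after the annotated start, 5′ to 3′ on the strand of the gene, from RefSeq (GRCh38.p14), with every ACGTG or GCGTG in capitals, on either strand (CACGT and CACGC where it lies on the opposite strand). The regions are chr4:185396591-185396890 (plus strand) for ANKRD37, chr10:72273674-72273973 (plus strand) for DDIT4, chr3:48556754-48557053 (minus strand) for PFKFB4 and chr3:4979187-4979486 (plus strand) for BHLHE40.
ANKRD37: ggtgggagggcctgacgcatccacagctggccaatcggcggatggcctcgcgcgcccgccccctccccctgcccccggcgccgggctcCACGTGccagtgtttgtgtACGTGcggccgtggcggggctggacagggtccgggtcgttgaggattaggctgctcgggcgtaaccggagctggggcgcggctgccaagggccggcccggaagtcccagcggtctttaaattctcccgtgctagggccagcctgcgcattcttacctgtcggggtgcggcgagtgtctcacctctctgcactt
DDIT4: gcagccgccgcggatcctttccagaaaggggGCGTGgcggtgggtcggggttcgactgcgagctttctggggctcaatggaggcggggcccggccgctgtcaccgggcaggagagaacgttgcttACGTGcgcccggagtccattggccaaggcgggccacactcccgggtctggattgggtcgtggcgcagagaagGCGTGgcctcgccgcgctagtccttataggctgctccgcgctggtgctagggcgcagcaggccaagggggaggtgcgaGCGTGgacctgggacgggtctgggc
PFKFB4: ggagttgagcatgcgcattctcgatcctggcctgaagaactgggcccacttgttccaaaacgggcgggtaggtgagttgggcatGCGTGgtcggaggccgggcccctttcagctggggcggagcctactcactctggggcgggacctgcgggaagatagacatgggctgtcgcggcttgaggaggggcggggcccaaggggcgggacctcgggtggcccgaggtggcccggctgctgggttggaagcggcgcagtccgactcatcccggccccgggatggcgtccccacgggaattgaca
BHLHE40: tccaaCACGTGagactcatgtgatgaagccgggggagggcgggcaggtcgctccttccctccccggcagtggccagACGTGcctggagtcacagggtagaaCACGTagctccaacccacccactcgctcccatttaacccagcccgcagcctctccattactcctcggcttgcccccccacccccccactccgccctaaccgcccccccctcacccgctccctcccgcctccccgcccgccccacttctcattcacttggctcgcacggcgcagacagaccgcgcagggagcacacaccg
The ANKRD37 promoter held a palindromic CACGTG at -162 to the start, read as a match on each strand, and another ACGTG at -143. DDIT4 had 4 matches, with GCGTG at -219, -53 and 26 and ACGTG at -125, while PFKFB4 had a single GCGTG at -166. All 10 HIF target genes called higher whose promoter was in the table held at least 1 match. The core is short and common, however, and was found in 64.6% of the promoters of all tested genes, in 68.3% of those of genes called higher and in 68.6% of those of genes called lower. A match is a run of letters and does not show binding.

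DDIT4, which encodes REDD1, an inhibitor of mTORC1, had the largest increase of all genes called higher. Its levels were 8.47, 8.82 and 8.75 in SUDHL2 hypoxia, against 7.05, 6.73 and 6.56 in HLY normoxia. The deposited intensities behind them, before any correction, were 590, 426 and 350 in SUDHL2 hypoxia and 217, 204 and 166 in HLY normoxia. Every SUDHL2 hypoxia array was therefore well above every HLY normoxia array, and the difference was 1.90 (standard error 0.159), a 3.73-fold higher level. DDIT4 also rose in HLY hypoxia (12.80, 12.41 and 12.84) against SUDHL2 normoxia, where all 3 arrays were at or below 11.09, by 1.63 (limma, adjusted p = 8.14e-05). It was the only gene of the HIF list whose larger difference lay in SUDHL2 hypoxia against HLY normoxia among the 8 called higher in both.

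ANKRD37, an ankyrin repeat protein induced by HIF1, had levels of 8.57, 8.76 and 8.65 in SUDHL2 hypoxia, against 7.58, 7.56 and 7.49 in HLY normoxia. The groups did not overlap, and the difference was 1.12 (standard error 0.141). On the other arrays it rose by 3.72 in HLY hypoxia against SUDHL2 normoxia (limma, adjusted p = 3.63e-09). ANKRD37 thus rose 13.1-fold on the arrays not chosen and was 2.17-fold higher between the like arrays.

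Glucose uptake and glycolysis gave 3 of the 12 HIF target genes called higher, namely PFKFB4, PFKFB3 and SLC2A1. PFKFB4, one of the bifunctional enzymes that set the level of fructose 2,6-bisphosphate and thereby the pace of glycolysis, had levels of 6.99, 6.50 and 6.14 in SUDHL2 hypoxia, against 5.12, 5.32 and 5.62 in HLY normoxia. Its probe was above background on 2 of the 3 SUDHL2 hypoxia arrays and on none of HLY normoxia, so the level was at least 1.57-fold higher, a bound set by the dimmest detectable signal. PFKFB4 rose by 3.58 in HLY hypoxia against SUDHL2 normoxia (limma, adjusted p = 2.34e-07). Its paralogue PFKFB3 had levels of 10.13, 10.31 and 10.47 in SUDHL2 hypoxia, against 9.82, 9.70 and 9.73 in HLY normoxia, a difference of 0.55, and another probe of it gave 0.62. PFKFB3 rose by 2.48 in HLY hypoxia against SUDHL2 normoxia (limma, adjusted p = 6.33e-08).

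SLC2A1, the glucose transporter GLUT1, had levels between 10.94 and 11.09 on the 3 SUDHL2 hypoxia arrays, against 10.27, 9.92 and 10.03 in HLY normoxia. No array of one group reached the other, and the difference of 0.94 (standard error 0.128) stood beside an increase of 1.48 in HLY hypoxia against SUDHL2 normoxia (limma, adjusted p = 2.13e-05). SLC2A6, a lysosomal hexose transporter outside the HIF list, was also called higher, at 6.33, 6.78 and 6.37 in SUDHL2 hypoxia and 5.68, 5.84 and 6.02 in HLY normoxia. Its probe was above background on all 3 SUDHL2 hypoxia arrays and on 1 HLY normoxia array, but on none of the other 6, which therefore give no check of it. The call ended with the authors' deposited scores, without background correction and with arrays centred on the detected probes.

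Of the 32 genes on the glycolysis list, 23 were tested. Between SUDHL2 hypoxia and HLY normoxia 5 were called higher (21.7%) and none lower, beside 5.75% and 10.1% of all genes. Among these was PGAM1, phosphoglycerate mutase, with 11.11 ± 0.05 in SUDHL2 hypoxia and 10.62 ± 0.06 in HLY normoxia (SD, n = 3 each), named after its values were seen. Its call ended in 7 of the 12 fits that left out 1 array, those without any HLY normoxia array, SUDHL2 hypoxia replicate 2 or 3, HLY hypoxia replicate 3 or SUDHL2 normoxia replicate 3 (0.45 to 0.51). The genes that rose in HLY hypoxia against SUDHL2 normoxia numbered 4 (17.4%, beside 1.17% of all genes), namely PFKFB3, PFKFB4, SLC2A1 and HK2. HK2, hexokinase 2, which the study followed up in lymphoma, was not called between the like arrays. Its level was 10.84 ± 0.08 in SUDHL2 hypoxia and 10.58 ± 0.15 in HLY normoxia (SD, n = 3 each), a difference of 0.26. It rose by 1.13 in HLY hypoxia (11.14 ± 0.13) against SUDHL2 normoxia (10.01 ± 0.04, limma, adjusted p = 0.000227). LDHA, lactate dehydrogenase A, and ENO1, enolase, were bright in both groups with differences of 0.16 and -0.04, neither of which was called.

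**Figure D2:**
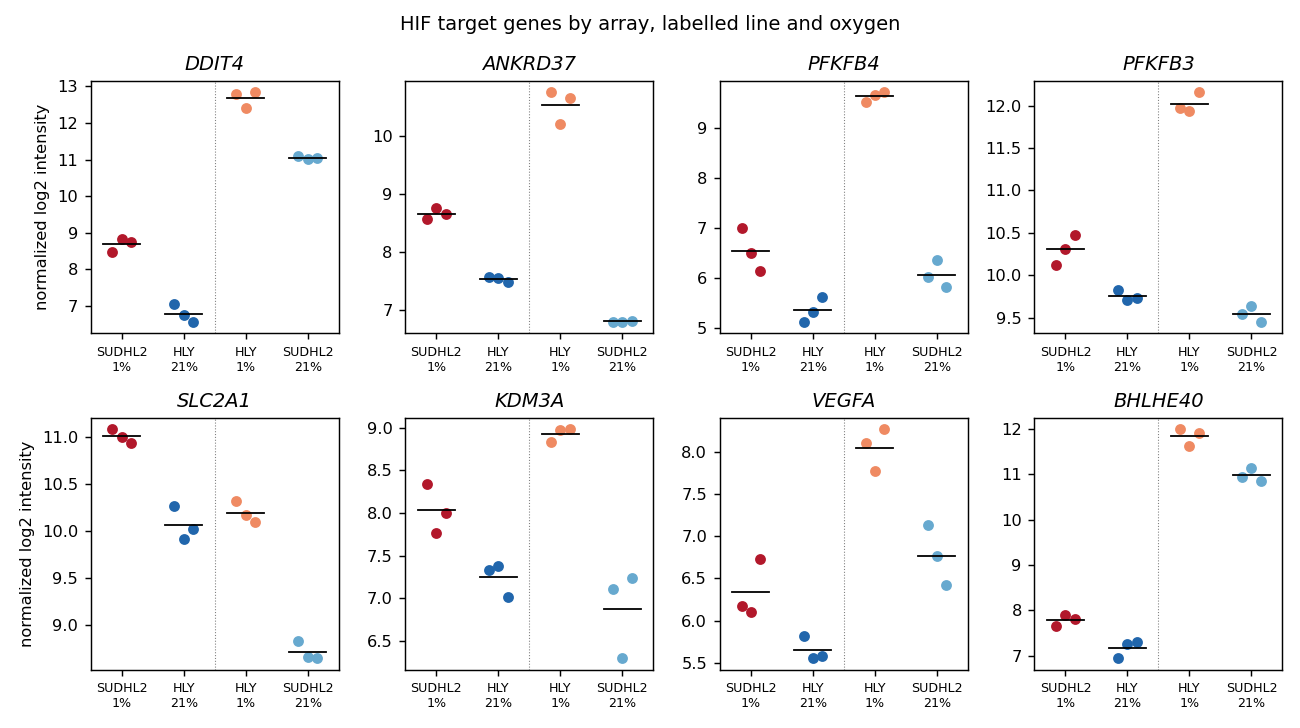
Normalized log2 intensity of 8 HIF target genes on each of the 12 arrays, with SUDHL2 hypoxia and HLY normoxia left of the dotted line and HLY hypoxia and SUDHL2 normoxia right of it. Points are arrays and bars are group means, each panel has its own scale, and in every panel the 3 arrays at 1% oxygen lie above the 3 arrays at 21% oxygen beside them.

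KDM3A, a histone H3 lysine 9 demethylase that uses oxygen in its reaction, had levels between 7.76 and 8.34 on the 3 SUDHL2 hypoxia arrays, against 7.33, 7.38 and 7.02 in HLY normoxia. The difference was 0.79, and in HLY hypoxia against SUDHL2 normoxia KDM3A rose by 2.05 (limma, adjusted p = 0.000227). Among the 17 histone lysine demethylases tested, KDM3A was the only one called higher (5.88%, beside 5.75% of all genes). JMJD1C, a relative of KDM3A, was the only one called lower (5.88%, beside 10.1% of all genes). These shares do not set the family apart from other genes. JMJD1C had levels of 7.27, 6.58 and 6.14 in SUDHL2 hypoxia and 7.37, 7.87 and 7.53 in HLY normoxia. VEGFA, the vascular growth factor, had levels of 6.17, 6.10 and 6.73 in SUDHL2 hypoxia, against 5.81, 5.55 and 5.58 in HLY normoxia. Its probe was above background on 1 of the 3 HLY normoxia arrays, and another probe of VEGFA differed by 0.33. VEGFA rose by 1.28 in HLY hypoxia against SUDHL2 normoxia (limma, adjusted p = 0.00434). BHLHE40, a transcriptional repressor also known as DEC1, had levels of 7.65, 7.91 and 7.82 in SUDHL2 hypoxia, against 6.95, 7.25 and 7.31 in HLY normoxia, and rose by 0.86 in HLY hypoxia against SUDHL2 normoxia (limma, adjusted p = 0.00614). These 3 genes were separated between the groups but by narrow gaps. Leaving out any HLY normoxia array, or SUDHL2 hypoxia replicate 1 or 3, ended the call of KDM3A, with differences of 0.64 to 0.86. Leaving out any HLY normoxia array, SUDHL2 hypoxia replicate 3 or HLY hypoxia replicate 1 ended that of VEGFA (0.48 to 0.77), and leaving out HLY normoxia replicate 1 or SUDHL2 hypoxia replicate 2 that of BHLHE40 (0.51 and 0.57). JMJD1C was no longer called without HLY normoxia replicate 2 or 3 or SUDHL2 hypoxia replicate 2 or 3 (-0.67 to -0.96).

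Of 56 HIF target genes listed, 39 were tested. Of these, 12 were called higher (30.8%, beside 5.75% of all genes) and 2 lower (5.13%, beside 10.1% of all genes). The list median was 0.21, beside 0.05 for all genes. With the authors' deposited scores 7 were called higher and 0 lower (limma), and the calls of VEGFA, KDM3A, BHLHE40, EGLN1, ZNF395, INSIG2 and RORA ended, while centring on the median of all probes left 1 called higher. VEGFA was also no longer called with the mean of its probes (0.51), without background correction, without the detection filter, with a larger offset, with arrays centred on the detected probes or with each comparison fitted alone. On the other arrays 13 rose (33.3%, beside 1.17% of all genes) and 1 fell (2.56%, beside 1.23%), with a median of 0.28. The 8 genes called higher in both made up 66.7% of the 12 and 61.5% of the 13, beside 3.98% and 19.5% of all genes called higher in each comparison. Those called higher between the like arrays only were ADM, CITED2, EGLN1 and ZNF395. ADM, the peptide adrenomedullin, had levels of 7.73, 7.45 and 7.79 in SUDHL2 hypoxia, against 6.82, 6.72 and 7.21 in HLY normoxia, and was not above background on the other 6 arrays. CITED2, which competes with HIF1α for the coactivator p300, had levels of 8.10, 8.29 and 8.13 in SUDHL2 hypoxia, against 7.36, 7.38 and 7.54 in HLY normoxia. CITED2 differed by -0.10 in HLY hypoxia against SUDHL2 normoxia (limma, adjusted p = 0.814).

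EGLN1, the main HIF prolyl hydroxylase PHD2 and itself a HIF target, had levels of 7.38, 6.87 and 7.11 in SUDHL2 hypoxia, against 6.77, 6.61 and 6.40 in HLY normoxia. Its difference of 0.53 was close to that of 0.59 in HLY hypoxia against SUDHL2 normoxia, where the test did not pass (limma, adjusted p = 0.0524). ZNF395 differed by 0.50 between the like arrays and by -0.04 on the others. HIF1A, the regulated subunit of HIF1, was called lower, with levels of 9.81, 9.22 and 9.41 in SUDHL2 hypoxia, against 10.13, 10.15 and 9.98 in HLY normoxia. Its other probes differed by -1.05 and -1.24. CUL2, the scaffold of the VHL ubiquitin ligase, was called lower as well (-0.73). Neither passed in HLY hypoxia against SUDHL2 normoxia, with differences of 0.08 for HIF1A and -0.27 for CUL2. The oxygen-sensing list as a whole had 1 of 14 genes higher (7.14%) and 2 lower (14.3%), beside 5.75% and 10.1% of all genes. The call of EGLN1 ended without HLY normoxia replicate 2 or 3 or SUDHL2 hypoxia replicate 1 or 3 (0.40 to 0.54), and those of ZNF395 (0.36 to 0.53) and HIF1A (-0.48 to -0.66) without any HLY normoxia array or SUDHL2 hypoxia replicate 2 or 3.

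Both HIF target genes called lower are also known for other roles. RORA, a nuclear receptor, had levels of 6.29, 5.59 and 4.96 in SUDHL2 hypoxia, against 6.64, 6.78 and 6.72 in HLY normoxia. Its probe was above background on 1 SUDHL2 hypoxia array, and its 3 other probes differed by -0.14, 0.24 and 0.22. INSIG2, a sterol sensor that retains SCAP in the endoplasmic reticulum, had levels of 7.22, 6.53 and 6.91 in SUDHL2 hypoxia, against 7.47, 7.50 and 7.31 in HLY normoxia. Neither passed in HLY hypoxia against SUDHL2 normoxia, and the call of INSIG2 ended in 9 of the 12 fits that left out 1 array (-0.36 to -0.60), those without any of the 3 HLY normoxia arrays, SUDHL2 hypoxia replicate 2 or 3, HLY hypoxia replicate 1 or 3, or SUDHL2 normoxia replicate 1 or 2.

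The remaining 25 HIF target genes were not called between the like arrays, and some of them rose strongly on the others. HILPDA, a lipid droplet protein, had 9.97 ± 0.30 in SUDHL2 hypoxia and 9.58 ± 0.11 in HLY normoxia (SD, n = 3 each), but rose by 2.53 in HLY hypoxia (11.34 ± 0.12) against SUDHL2 normoxia (8.81 ± 0.15, limma, adjusted p = 4.34e-07). P4HA1, a collagen prolyl hydroxylase, differed by 0.38 between the like arrays and rose by 0.92 on the others. BNIP3L, a mitophagy receptor, differed by -0.10 and rose by 0.93, ZNF654 by -0.09 and rose by 1.27, and MXI1, a MYC antagonist not above background on any of the 6 like arrays, rose by 1.05 in HLY hypoxia against SUDHL2 normoxia. These genes were named after their values were seen. PDK1, the kinase that shuts pyruvate dehydrogenase, differed by 0.47 and 0.54 and passed in neither comparison.

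Other transcripts higher in both comparisons included stress and inflammatory factors. ATF3, a stress-induced transcription factor, had levels of 8.73, 8.64 and 8.80 in SUDHL2 hypoxia, against 8.23, 8.19 and 8.26 in HLY normoxia, and ATF5, a related target of ATF4, had 11.47, 11.37 and 11.55 against 10.72, 10.99 and 10.82. The arrays of each group were tight and apart for both genes, which rose by 0.72 and 0.51 in HLY hypoxia against SUDHL2 normoxia (limma, adjusted p = 0.00918 for ATF3 and 0.0353 for ATF5). CCL3L3, a chemokine gene with near-identical copies that its probe may not separate, had levels of 6.51, 6.23 and 6.47 in SUDHL2 hypoxia, against 5.75, 6.05 and 5.66 in HLY normoxia, and was at least 2.02-fold higher in HLY hypoxia than in SUDHL2 normoxia, where no array was above background (limma, adjusted p = 3.99e-06). RELB, a subunit of the alternative NF-κB pathway, had 9.40 ± 0.14 in SUDHL2 hypoxia and 8.87 ± 0.08 in HLY normoxia (SD, n = 3 each) and rose by 0.98 in HLY hypoxia against SUDHL2 normoxia. The call of RELB, which was named after its values were seen, ended between the like arrays without any HLY normoxia array or SUDHL2 hypoxia replicate 2 or 3 (0.46 to 0.57). MIR503HG, the host transcript of a microRNA, had 7.10, 7.45 and 6.96 in SUDHL2 hypoxia, against 6.47, 6.69 and 6.22 in HLY normoxia, and rose by 1.30 on the other arrays (limma, adjusted p = 0.000588). ATF3 was no longer called without any HLY normoxia array or SUDHL2 hypoxia replicate 3 (0.46 to 0.52), CCL3L3 without HLY normoxia replicate 1 or 3 or SUDHL2 hypoxia replicate 3 (0.50 to 0.55), and on the other arrays ATF3 failed without HLY hypoxia replicate 3 (limma, adjusted p = 0.0559). ATF5 failed there without any HLY hypoxia array, SUDHL2 normoxia replicate 2 or 3 or HLY normoxia replicate 3 (0.48 to 0.52, limma, highest adjusted p = 0.114), nor did it pass with each comparison fitted alone or with arrays centred on the detected probes.

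Genes of small nucleolar RNAs, which guide the chemical modification of ribosomal and spliceosomal RNA, made up 3 of the 22 genes higher in both. They were 107 of all 9621 genes tested. The RNA was reverse transcribed with an oligo-dT primer, and whether these probes read the mature small RNAs or longer transcripts was not tested. SNORA3B had levels of 7.65, 7.85 and 7.41 in SUDHL2 hypoxia, against 6.69, 6.56 and 6.79 in HLY normoxia, and rose by 1.07 in HLY hypoxia against SUDHL2 normoxia (limma, adjusted p = 0.00586). SNORD34 and SNORD99, named after their values were seen, differed by 0.91 and 0.73 between the like arrays and rose by 0.89 and 0.96 on the others. Of 107 small nucleolar RNA genes tested, 13 were called higher (12.1%) and 9 lower (8.41%) between SUDHL2 hypoxia and HLY normoxia, beside 5.75% and 10.1% of all genes. In HLY hypoxia against SUDHL2 normoxia 12 rose (11.2%, beside 1.17% of all genes) and none fell in limma's test (48 higher and 2 lower at an unadjusted p under 0.05), with a median of 0.30. That second count ran from 6 without HLY hypoxia replicate 2 and 8 without HLY hypoxia replicate 3 to 15 without SUDHL2 hypoxia replicate 1.

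Genes of DNA replication were called higher between the like arrays, and none of them was called on the other arrays. Of 38 tested, 9 were higher (23.7%) and none lower, beside 5.75% and 10.1% of all genes, with a list median of 0.26. CDC6, a loader of the MCM helicase, had levels of 7.15, 6.99 and 6.86 in SUDHL2 hypoxia, against 6.37, 6.30 and 5.62 in HLY normoxia. CDT1, its partner in licensing, had 10.67, 10.71 and 10.70 in SUDHL2 hypoxia, against 10.19, 9.86 and 10.03 in HLY normoxia. E2F2, an activator of S-phase genes, had 9.84, 9.77 and 9.85 in SUDHL2 hypoxia, against 9.07, 9.05 and 9.10 in HLY normoxia, with a standard error of 0.122 on the difference of 0.74. The groups did not overlap for any of the 3, and the other higher genes included GINS2 and GINS3, subunits of the replicative helicase. In HLY hypoxia against SUDHL2 normoxia, limma called none of the 38 (3 higher and 1 lower at an unadjusted p under 0.05), with a list median of -0.03, and E2F2 differed by -0.01. The count of 9 fell to 5 without any one of the HLY normoxia arrays or SUDHL2 hypoxia replicate 3, and was 15 with arrays centred on the median of the detected probes. It was 6 without SUDHL2 hypoxia replicate 2. CDC6 was detected on 2 of the 3 HLY normoxia arrays, and without HLY normoxia replicate 3 it was no longer called (0.67).

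Of 36 genes of mitosis, 7 were called lower (19.4%, beside 10.1% of all genes), 3 higher (8.33%, beside 5.75%) and 26 neither. The list median was 0.13. ASPM, which organizes spindle poles, had levels of 8.58, 8.44 and 8.04 in SUDHL2 hypoxia, against 9.46, 9.39 and 9.47 in HLY normoxia. CENPE, a kinetochore motor, had 7.71, 7.61 and 7.26 in SUDHL2 hypoxia, against 8.33, 8.26 and 8.32 in HLY normoxia, and its other probe differed by -1.26. DLGAP5, a spindle protein, had 8.66, 8.50 and 8.60 in SUDHL2 hypoxia, against 9.24, 9.24 and 9.40 in HLY normoxia. CDC20, the activator of the anaphase-promoting complex, and BIRC5, survivin, were higher, by 0.49 and 0.53. The 7 lower genes had a median span of 43.5 kb on the chromosome and the 3 higher ones of 8.6 kb. Limma called none of the 36 in HLY hypoxia against SUDHL2 normoxia (2 higher and 0 lower at an unadjusted p under 0.05), where the median was 0.02. The number of lower genes was 3 without SUDHL2 hypoxia replicate 2 or 3, 4 without any HLY normoxia array and 9 without SUDHL2 hypoxia replicate 1.

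**Figure D3:**
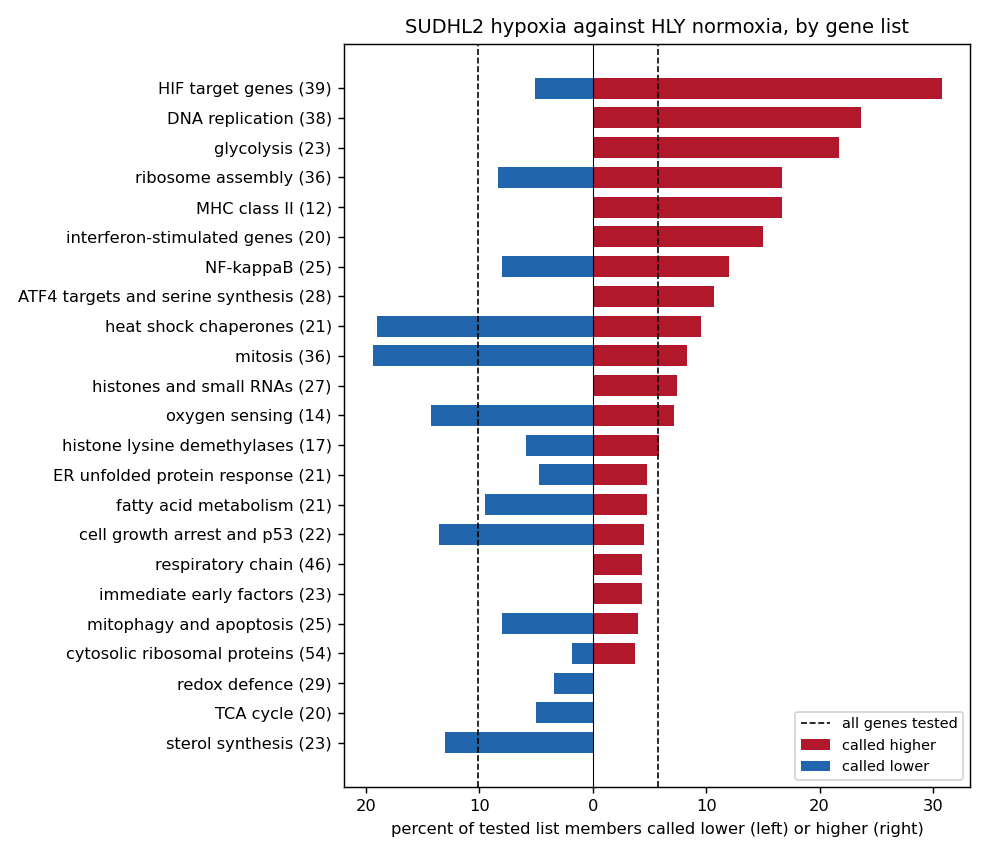
Percent of the tested members of each gene list (number tested in brackets) called lower, to the left, or higher, to the right, in SUDHL2 hypoxia against HLY normoxia. Dashed lines mark the 10.1% lower and 5.75% higher among all genes, and HIF target genes, DNA replication and glycolysis have the longest bars to the right.

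Among chaperones of the heat shock response, 2 of 21 were higher and 4 lower, beside 5.75% and 10.1% of all genes. CHORDC1, a partner of HSP90, had levels of 9.48, 9.39 and 9.16 in SUDHL2 hypoxia, against 10.86, 10.46 and 10.52 in HLY normoxia. HSPH1, an HSP110 chaperone, had 11.97 ± 0.04 in SUDHL2 hypoxia, against 12.64 ± 0.14 in HLY normoxia (SD, n = 3 each). DNAJB1, the co-chaperone of HSP70, went the other way, with 9.31, 9.48 and 9.62 in SUDHL2 hypoxia, against 8.93, 8.65 and 8.89 in HLY normoxia. DNAJB1 fell by 0.68 in HLY hypoxia against SUDHL2 normoxia (limma, adjusted p = 0.0138), a call that ended without HLY hypoxia replicate 2 or 3 or SUDHL2 normoxia replicate 3 (limma, highest adjusted p = 0.0719).

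On the NF-κB list, 3 of 25 genes were higher and 2 lower, beside 5.75% and 10.1% of all genes. TNF, the cytokine, had levels of 8.26, 8.07 and 8.38 in SUDHL2 hypoxia, against 7.65, 7.49 and 7.57 in HLY normoxia. REL, the c-Rel subunit, had 7.19, 6.73 and 6.43 in SUDHL2 hypoxia, against 7.78, 7.71 and 7.88 in HLY normoxia, and its other probe differed by -1.04. IL10, a cytokine made by activated B-cell-like lymphoma, had 12.03, 12.22 and 12.15 in SUDHL2 hypoxia, against 12.92, 12.72 and 12.88 in HLY normoxia, but its other probe differed by 0.24. RELB was the only one called higher in both comparisons. Limma called 6 of the 25 higher (24.0%, beside 1.17% of all genes) and none lower in HLY hypoxia against SUDHL2 normoxia (10 higher and 1 lower at an unadjusted p under 0.05). REL and TNF were not above background on any of those 6 arrays. Of 23 immediate early factors, 5 rose there (21.7%, beside 1.17% of all genes). Between the like arrays ATF3 was the only one called (4.35%, beside 5.75% of all genes called higher). FOS, a subunit of AP-1, was at least 3.36-fold higher in HLY hypoxia than in SUDHL2 normoxia (limma, adjusted p = 3.61e-08) but not above background on any of the 6 like arrays, and EGR1 rose by 1.53 (limma, adjusted p = 3.99e-06) and was likewise not above background on the like arrays. FOS and EGR1 were named after their values were seen.

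Smaller numbers of genes were called on the other lists, to be read beside the 5.75% of all genes called higher and the 10.1% called lower. Among interferon-stimulated genes 3 of 20 were higher, led by IRF1, an interferon regulatory factor, with 7.61, 7.57 and 7.41 in SUDHL2 hypoxia, against 6.93, 6.58 and 6.89 in HLY normoxia. Among genes of MHC class II 2 of 12 were higher, and among ATF4 targets 3 of 28. Ribosome assembly factors had 6 of 36 higher (16.7%) and 3 lower (8.33%), and the cytosolic ribosomal proteins 2 of 54 higher and 1 lower. Subunits of the respiratory chain had 2 of 46 higher and none lower. In sterol synthesis 3 of 23 were lower and none higher, among them HSD17B7, with 10.97, 10.68 and 10.80 in SUDHL2 hypoxia, against 11.80, 11.81 and 11.78 in HLY normoxia. In limma's test none of the 23 passed in HLY hypoxia against SUDHL2 normoxia (2 higher and 7 lower at an unadjusted p under 0.05), which gave HSD17B7 a difference of -0.46.

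The genes lower in SUDHL2 hypoxia were more numerous, changed more and were longer than those higher. UFM1, a ubiquitin-like modifier, had levels of 8.90, 8.76 and 8.67 in SUDHL2 hypoxia, against 10.30, 10.41 and 10.50 in HLY normoxia, a difference of -1.62 (standard error 0.148), whereas its other probe differed by -0.42. RASSF6, a Ras association domain protein, had 8.84, 8.68 and 8.42 in SUDHL2 hypoxia, against 10.34, 10.32 and 10.29 in HLY normoxia. This probe of RASSF6 was not above background on the other 6 arrays, and its other probes differed by -0.71 and -1.33 between the like arrays. SAMSN1, an adaptor of lymphocytes that dampens B-cell activation, had 7.22, 7.13 and 6.76 in SUDHL2 hypoxia, against 8.58, 8.79 and 8.52 in HLY normoxia. Its other probe differed by -0.83. LTN1, the ubiquitin ligase of stalled ribosomes, had 7.49, 7.17 and 6.96 in SUDHL2 hypoxia, against 8.45, 8.79 and 8.65 in HLY normoxia, and its other probes differed by -0.82 and -1.53. For all 4 genes the groups were far apart. In HLY hypoxia against SUDHL2 normoxia UFM1 (-0.06), SAMSN1 (0.36) and LTN1 (0.13) did not pass, and the probe of RASSF6 gives no check. Other probes did not all follow these values there. They differed by 0.55 for UFM1, 0.69 for SAMSN1, 0.10 and 0.25 for LTN1 and -0.07 and -0.71 for RASSF6. Unadjusted p-values were 0.0024 for UFM1, 0.012 for SAMSN1 and 0.0016 for the larger decrease of RASSF6 (limma).

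The span of a gene on the chromosome, from RefSeq (GRCh38.p14), had a median of 47.5 kb for the 973 genes called lower, 17.1 kb for the 553 called higher and 27.5 kb for all genes. When genes were divided by span into 5 equal bins, with medians of 4.0, 13.3, 27.5, 52.9 and 137.5 kb, the share called lower was 4.11% in the shortest bin, then 6.71%, 10.8%, 14.5% and 14.5%. The share called higher went from 8.26% in the shortest bin through 6.76%, 5.72% and 4.37% to 3.64% in the longest. The median difference over all genes of a bin was 0.15 in the shortest and -0.06 in the longest. In HLY hypoxia against SUDHL2 normoxia the shares called lower were 0.988%, 1.14%, 1.51%, 1.77% and 0.728% from the shortest to the longest bin, with medians between -0.02 and 0.01. Longer genes were thus called lower more often between the like arrays. On the other 6 the share rose up to the bin of 52.9 kb and was lowest in the longest bin. Those bins held 14 to 34 genes called lower, too few to settle whether an order held there. The gradient was present without SUDHL2 hypoxia replicate 3, the array with the fewest detected probes, at 2.70% in the shortest and 8.84% in the longest bin, and without replicate 1 at 5.30% and 21.0%. Over the 973 genes called lower, the median distance from the HLY normoxia mean was -0.55, -0.78 and -0.85 on SUDHL2 hypoxia replicates 1, 2 and 3, whose numbers of detected probes fall in the same order. The part of array brightness in this result was not tested.

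**Figure D4:**
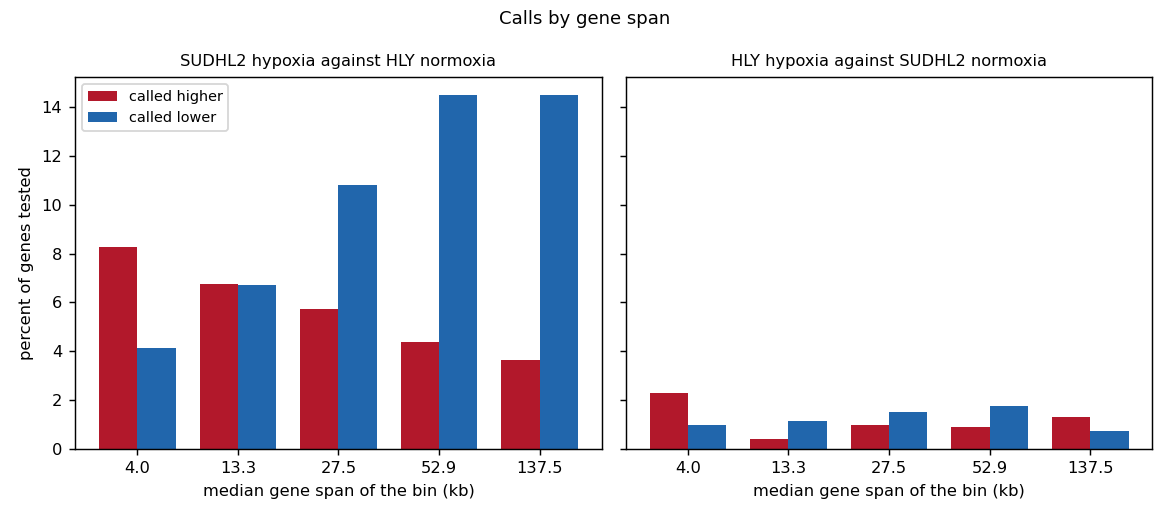
Percent of genes called higher (red) and lower (blue) in 5 equal bins of the tested genes by gene span, with the median span in kb on the x axis. In SUDHL2 hypoxia against HLY normoxia (left) the share called lower grows with span from 4.11% to 14.5%, and in HLY hypoxia against SUDHL2 normoxia (right) all shares stay at 2.29% or less.

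The 57 genes lower in both comparisons had a median level of 9.60 in SUDHL2 hypoxia and 10.65 in HLY normoxia, beside 8.17 and 8.18 for all genes. ABRAXAS1, a scaffold of a BRCA1 complex, had levels of 9.48, 9.20 and 9.34 in SUDHL2 hypoxia, against 10.96, 10.98 and 10.71 in HLY normoxia, and fell by 1.02 in HLY hypoxia against SUDHL2 normoxia (limma, adjusted p = 0.00264). CDKN2AIPNL averaged 11.65 ± 0.11 in SUDHL2 hypoxia and 13.08 ± 0.08 in HLY normoxia (SD, n = 3 each), and fell by 1.01 on the other arrays (limma, adjusted p = 0.00196). COA8, a mitochondrial factor of cytochrome c oxidase, had 9.81, 9.47 and 9.69 in SUDHL2 hypoxia, against 10.84, 10.88 and 10.54 in HLY normoxia, and fell by 1.32 (limma, adjusted p = 0.00168). The 10 genes with the largest mean of both differences, which also held ITPK1-AS1, ZNF69, DDX51, ZNF682, BMS1P1, FKBP14 and ARL16, differed by -1.54 to -1.10 between the like arrays. ZMAT3, a p53 target that binds RNA, was lower in both as well, with -0.92 and -1.22. Zinc finger genes named ZNF made up 8 of the 57 (14.0%), beside 2.61% of all genes tested. Between the like arrays 46 of the 251 tested (18.3%) were called lower, beside 10.1% of all genes. In HLY hypoxia against SUDHL2 normoxia 9 of the 251 fell (3.59%), beside 1.23% of all genes.

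Other probes of these genes mostly had a smaller decrease or none. Of the 57 genes, 26 had another detected probe. Between SUDHL2 hypoxia and HLY normoxia the brightest probe had a median difference of -1.11 while the other probe had one of -0.13, with the same sign in 17 of the 26. With the mean of a gene's probes, ZNF69, DDX51 and FKBP14 were no longer called in HLY hypoxia against SUDHL2 normoxia. In that comparison the other probe differed by 0.02 for ZNF69, -0.005 for DDX51, -0.25 for ARL16 and -0.16 for FKBP14. Between SUDHL2 hypoxia and HLY normoxia it differed by 0.19 for ZNF69, 0.25 for DDX51 and -0.03 for ARL16, whereas for FKBP14 it differed by -0.95. Over all 973 genes called lower, the 337 with another detected probe had medians of -0.74 for the brightest and -0.51 for the other probe, with the same sign in 299. Among the 553 called higher the 110 with another probe had medians of 0.53 and 0.34, with the same sign in 97. A call of a gene lower in both therefore describes the transcripts that its brightest probe reads, and which transcripts these are was not tested.

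**Figure D5:**
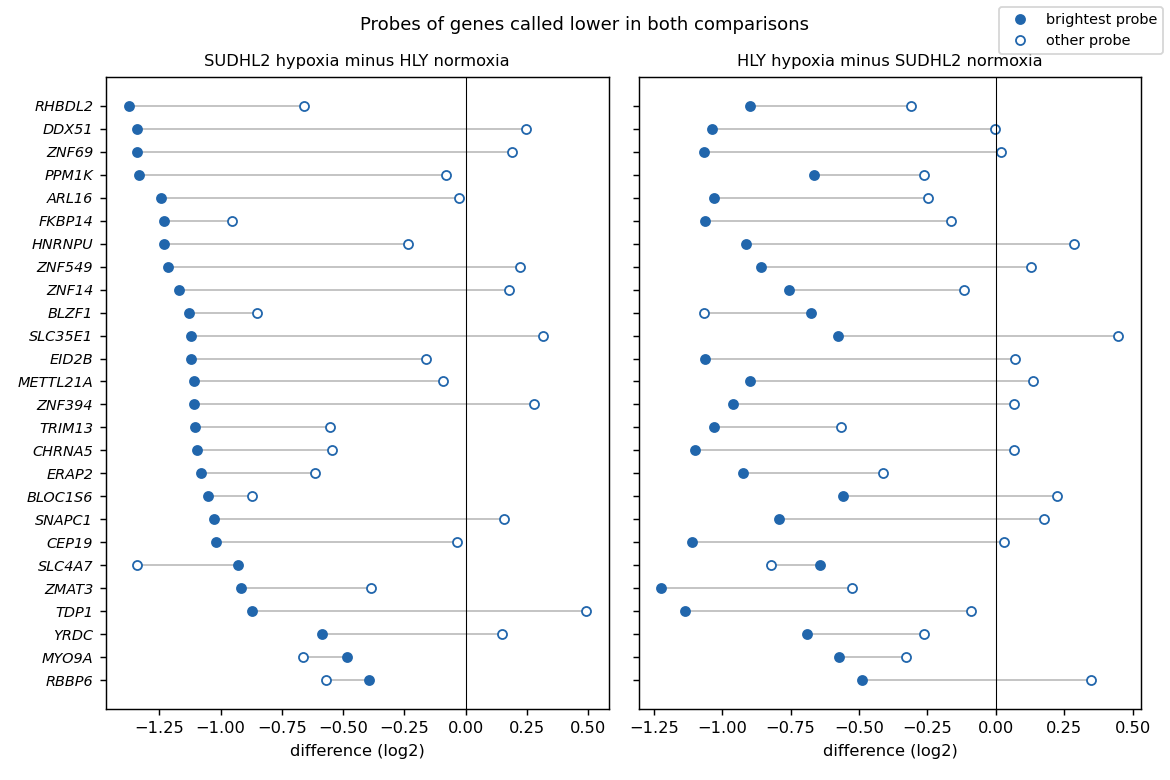
Log2 difference of the brightest probe (filled) and of another detected probe (open) for the 26 of the 57 genes lower in both comparisons that have one, in SUDHL2 hypoxia minus HLY normoxia (left) and HLY hypoxia minus SUDHL2 normoxia (right). Most open points lie closer to 0 than the filled ones, as for DDX51 and ZNF69, while SLC4A7 and BLZF1 have both probes below 0.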

How the data were processed

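Per the labels, total RNA of the 12 cultures was reverse transcribed with an oligo-dT primer, amplified, labelled and hybridised to Illumina HumanHT-12 v4 BeadChips. The authors deposited probe intensities with no normalization between arrays, extracted with GenomeStudio 2011.1 per the submitters' processing notes, each with a detection p-value, the p-value that the probe does not exceed the negative controls of its array. A deposited score, recomputed to within 0.0109, was each array's log10 intensities scaled to mean 0 and unit SD, and was used as an alternative. Here the intensities were corrected and quantile-normalized over the 12 arrays with neqc of limma 3.58.1 (R 4.3.3, offset 16), which infers the negative controls from the detection p-values. Of 47230 probes, 16288 were kept, those detected (p under 0.01) on 3 or more arrays. Gene names came from the platform annotation, in which 30113 probes had 1 symbol, 8 had several and 17109 had none here. Of the kept probes 12684 had a symbol, and the brightest probe stood for each of 9621 genes, 2492 of which had several. Quantile normalization gives all arrays 1 distribution, so a difference is relative to the other probes.

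One limma fit with 4 group means gave both comparisons, sharing 1 estimate of the spread (8 residual and 5.71 prior degrees of freedom). P-values were adjusted over all 9621 genes by Benjamini-Hochberg, with a threshold of 0.05. The exact permutation test of 3 against 3 arrays cannot go below 0.1 and was not used. Where no array of a group was above background, a fold is a bound against the lowest detected signal. The members, gene lists and tests were chosen with earlier results of these data known. The genes described were the 15 largest separated increases and the 15 largest decreases, the called HIF targets, the 10 genes with the largest mean of both differences in each direction and up to 4 called genes of each other list. Not all of these are printed, and genes outside this rule (HK2, PGAM1, LDHA, ENO1, PDK1, HILPDA, P4HA1, BNIP3L, ZNF654, MXI1, RELB, SNORD34, SNORD99, FOS, EGR1, GINS2, GINS3, CDC20 and BIRC5) were chosen after their values were seen. Alternatives changed the background correction, offset, normalization, detection filter, probe summary, moderation, samples in the fit, threshold and replicate block, left out each array in turn, and used the selection stated in the methods. The limma fit and the adjustment of p-values were tested on simulated normalized values. Background correction, normalization, the detection filter, the choice of probes and shared array effects were not simulated. Tables and plots were made with Python 3.11.15, pandas 2.3.3, numpy 2.4.6 and matplotlib 3.10.9. With 3 arrays a group, the number of arrays limits the precision.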

Additional observations from a re-analysis of the deposited data

Results flagged for a closer look

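For a number of described genes the difference between SUDHL2 hypoxia and HLY normoxia and that between HLY hypoxia and SUDHL2 normoxia were unequal in limma's test of their difference, as they were for 552 of all 9621 genes (5.74%). The test uses the arrays chosen for their likeness, and many of these genes were named for their values in one of the comparisons, so it is not independent of the choice, and the values are given as a description that supports nothing else. Genes below background on all 6 arrays of a comparison are left out. Among HIF target and glycolysis genes the second increase was the larger for ANKRD37 (1.12 and 3.72, adjusted p = 1.95e-05), PFKFB3 (0.55 and 2.48, adjusted p = 0.000142), PFKFB4 (adjusted p = 0.0014), KDM3A (0.79 and 2.05, adjusted p = 0.0333), HK2 (0.26 and 1.13, adjusted p = 0.0157) and HILPDA (0.38 and 2.53, adjusted p = 0.000332). The same held for BNIP3L (adjusted p = 0.0146) and ZNF654 (adjusted p = 0.024). CITED2 (0.75 and -0.10, adjusted p = 0.03) and INSIG2 (-0.54 and 0.31, adjusted p = 0.0499) differed the other way.

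The chemokine gene CCL3L3 (adjusted p = 0.00478) was at least 2.02-fold higher in HLY hypoxia than in SUDHL2 normoxia. IRF1 had differences of 0.73 and -0.10 (adjusted p = 0.0287) and JMJD1C of -0.93 and 0.47 (adjusted p = 0.0333). DNAJB1 was higher in SUDHL2 hypoxia (0.65) and lower in HLY hypoxia (-0.68) than on the arrays at 21% oxygen beside them (adjusted p = 0.00376), and CHORDC1 had -1.27 and -0.37 (adjusted p = 0.0381). Among cell cycle genes the test passed for E2F2 (adjusted p = 0.0255), ASPM (adjusted p = 0.0128), CENPE (adjusted p = 0.0347), DLGAP5 (adjusted p = 0.0243) and BIRC5 (adjusted p = 0.0452). Among the largest decreases it passed for SAMSN1 (adjusted p = 0.00192), UFM1 (adjusted p = 0.00287) and LTN1 (adjusted p = 0.00478).

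A further 3604 detected probes had no gene symbol and enter no comparison above. Of these, limma called 134 higher (3.72%) and 313 lower (8.68%) in SUDHL2 hypoxia than in HLY normoxia. In both comparisons 4 were called higher and 45 lower.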

How the results depend on the processing

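The calls depended most on the normalization and on single arrays. Centring each array on the median of all probes left 1 higher gene, 9 lower genes, 1 and 0 genes called higher and lower in both comparisons and 6 genes with unequal differences. Centring on the detected probes, an alternative added after the data were seen, gave 745 higher and 801 lower genes. With each comparison normalized and fitted alone, 362 genes were higher. The selection of the methods gave 219 higher genes and 86 genes lower in both. Without background correction 904 genes, and without the detection filter 363, had unequal differences, against 552. Leaving out 1 array gave 210 to 812 higher genes, 623 to 1321 lower genes, 14 to 27 genes higher in both, 29 to 63 lower in both and 184 to 1333 with unequal differences, and the HIF target genes called higher numbered 8 to 12, against 7 with the deposited scores and 1 with centring on all probes. The deposited scores also ended the calls of ATF3, CCL3L3, CDC6, IRF1, JMJD1C, MIR503HG and SNORD99 between the like arrays. The mean of a gene's probes ended those of IL10, PGAM1 and RORA there and of ZNF654 on the other arrays, and centring on the detected probes those of TNF and HIF1A. The replicate numbers did not pair the arrays, since the deviations of same-numbered arrays correlated at 0.044, -0.024 and 0.033 between SUDHL2 hypoxia and HLY normoxia. With the replicate block 439 genes were higher and 906 lower, with 18 and 48 in both, and the calls of INSIG2, ZNF395 and, on the other arrays, ATF5 ended. No called gene that the text names changed sign in any alternative fit. The cause of these shifts was not tested. With 3 arrays a group and 1 cell line behind each label, small differences and dim probes are measured least firmly.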
